A study of Mus musculus with 6 samples.

Results

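The 9 genes described here encode the subunits of the mTOR complexes: Rptor, Mtor, Mlst8, Rictor, Mapkap1, Akt1s1, Deptor, Prr5 and Prr5l. They were chosen by name, and 28 of the 34945 probe sets that name a single mouse gene belong to them. Each gene is represented by its probe set with the highest mean over all 6 arrays, as was every one of the 18193 genes measured, and the other probe sets of each subunit are given beside it. Signals are log2 intensities.

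The arrays carried RNA of bone marrow cells sorted as lineage-negative, Sca1+, cKit+ and Flt3-, a population enriched in haematopoietic stem and progenitor cells. The Raptor mutant group (3 arrays) came from C57BL/6-background mice with loxP sites around exon 6 of both Raptor (Rptor) alleles and the MxCre transgene, which expresses Cre recombinase from a promoter that interferon switches on. The wild type group (3 arrays) came from mice with the same floxed alleles and no MxCre. Mice of both groups were injected 3 times within 5 days with pIpC, which induces interferon, at a dose of 15 µg/g, and were used 5 weeks later. Mx-driven Cre also acts outside the sorted cells, in other interferon-responsive tissues. The labels give neither age nor sex, and do not say whether an array stands for 1 mouse or a pool.

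The kinase mTOR works in 2 complexes. In mTORC1 it is joined by Raptor, which recruits substrates and docks the complex at the lysosome, and the complex promotes protein, lipid and nucleotide synthesis and restrains autophagy. In mTORC2 it is joined by Rictor and Sin1, and the complex phosphorylates AKT, SGK and PKC kinases. mLST8 and the inhibitor DEPTOR are found in both complexes. In haematopoietic stem cells the pathway is known for its part in quiescence, growth and blood cell output.

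The arrays of the wild type group differed among themselves in more than the subunits. Over probe sets, Pearson r among mutant arrays was 0.985 to 0.988. Wild type array 1 had r of 0.977 to 0.984 with them, but 0.962 and 0.967 with wild type arrays 2 and 3. Arrays 2 and 3 of the wild type group had r of 0.957 with each other and 0.960 to 0.968 with mutants. Every mutant minus wild type value rests on reference arrays that differ in this way. Xist, the X-inactivation RNA, had log2 signals of 13.4 on each mutant array, compared with 13.5, 8.05 and 5.69 on wild type arrays 1, 2 and 3. Y-linked Kdm5d had signals of 3.69 to 3.88 on mutant arrays, compared with 3.60, 10.6 and 9.53 on wild type arrays 1, 2 and 3. By these signals wild type arrays 2 and 3 read as male and the other arrays as female, so sex and genotype are partly confounded. Without arrays 2 and 3 the mutants are set against wild type array 1 alone. Kit, the receptor used in the sort, had signals of 10.7 to 10.9 on mutant arrays and 10.7 to 11.2 on wild type arrays, and Ly6a, which encodes Sca1, has no probe set naming it alone. Flt3, the receptor sorted against, had signals of 9.64 to 10.2 on mutant arrays and 9.51 to 10.8 on wild type arrays. Summed linear signals of 7 mature neutrophil genes were 1976 to 5759 on mutant arrays and 19123 to 27586 on wild type arrays. Those of 6 mast cell and basophil genes were 4764 to 7516 on mutant arrays and 1637 to 2497 on wild type arrays, and those of 7 macrophage and dendritic cell genes were 3537 to 7734 on mutant arrays and 1445 to 1606 on wild type arrays. For 7 stem cell genes the sums were 4145 to 4600 on mutant arrays and 7925 to 8643 on wild type arrays, and for 5 megakaryocyte genes 1730 to 2643 on mutant arrays and 4004 to 4568 on wild type arrays. Slamf1 had a log2 fold change of 0.25, and the other stem cell genes had negative ones. Of the megakaryocyte genes, Pf4 was at -1.73, and the others ran from -0.71 to 0.01. Sums of 3 erythroid genes overlapped, at 578.2 to 1033.1 on mutant arrays and 578.0 to 692.0 on wild type arrays. Sums of 6 T and NK cell genes were 2806 to 3837 on mutant arrays and 1815 to 2477 on wild type arrays, and those of 4 B cell genes 326.5 to 432.2 on mutant arrays and 438.3 to 584.1 on wild type arrays. Of the 6 T and NK cell genes, 4 had a positive log2 fold change. Only Gzmb, a granule protease, was called, at 4.21 (limma adjusted p = 0.013), and the others ran from -0.46 to 0.23. All 7 neutrophil genes had a negative log2 fold change, and all 6 mast cell and 7 macrophage genes a positive one. Their part in the values of the subunits was not tested.

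None of the 9 subunit genes passed the test between Raptor mutant and wild type arrays. By limma, with Benjamini-Hochberg adjustment over all genes, 0 of 9 were called at an adjusted p under 0.05, where 0.11% of all genes were (20 of 18193). At an unadjusted p under 0.05 the count was also 0 of 9, where 10% of all genes passed. Of the 28 probe sets, fitted as separate features, 0 passed, against 0.0343% of all probe sets, and 0 had an unadjusted p under 0.05. Of the 9 genes, 6 had a positive and 3 a negative log2 fold change, against 40.4% positive over all genes. Of the 28 probe sets, 13 had a positive one, against 43.6% of all probe sets. The median log2 fold change of the 9 genes was 0.17, beside -0.07 over all genes and 0.06 over the brighter 50% of genes. That of the 28 probe sets was -0.06, beside -0.05 over all probe sets. In these bulk samples fewer cells of a type and less RNA per cell cannot be told apart.

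**Figure D1:**
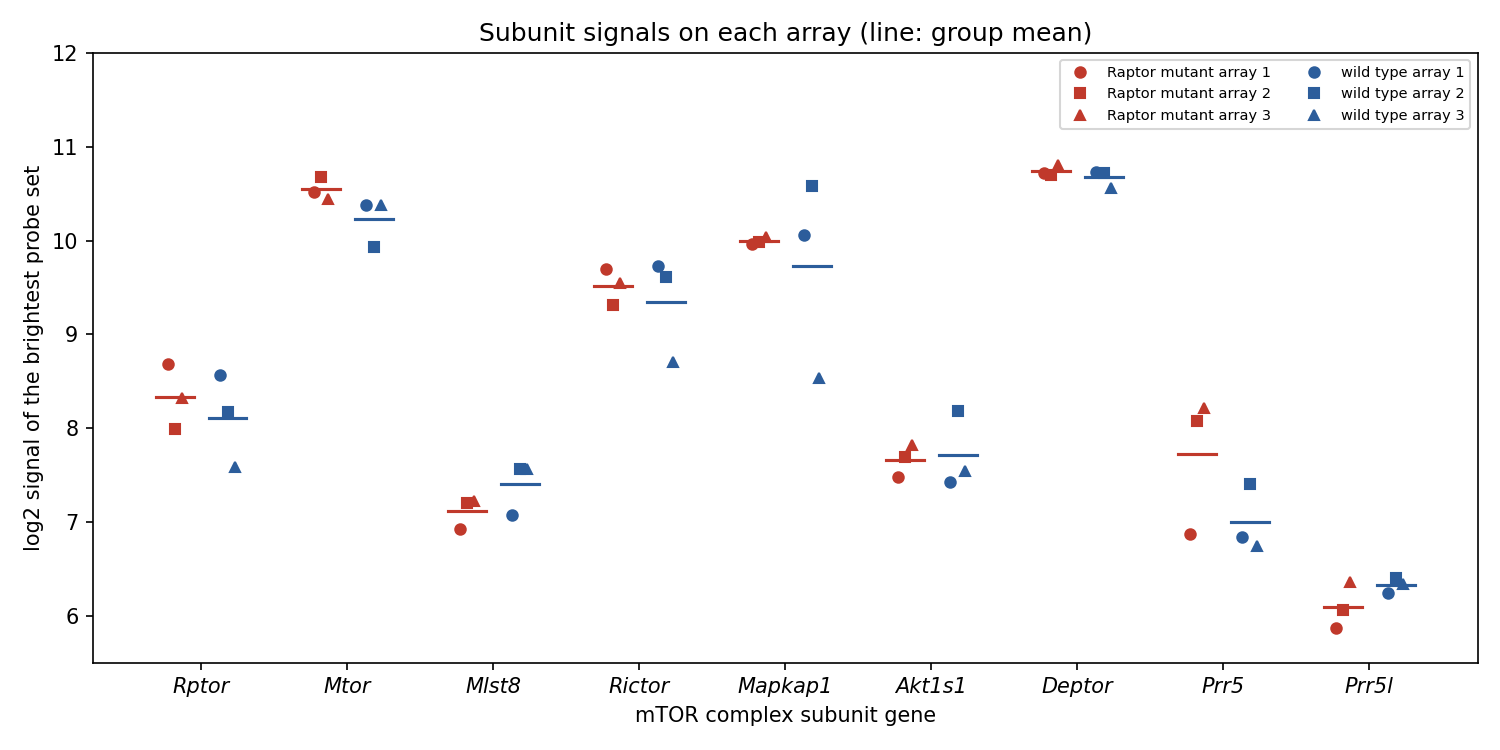
Log2 signal of the brightest probe set of each mTOR complex subunit gene (horizontal axis) on the 3 Raptor mutant arrays (red, left) and the 3 wild type arrays (blue, right), with a line at each group mean. Mtor is the only gene whose groups do not overlap, and Mapkap1 and Rictor have a low value on wild type array 3.

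Rptor, the gene with the floxed exon, was seen by 3 probe sets, and no source used here gives their position relative to exon 6. They therefore check neither the deletion nor the labels, since a probe outside the deleted exon still detects a transcript that lacks it. The brightest, 1430784_a_at, had signals of 8.68, 7.99 and 8.33 on mutant arrays 1, 2 and 3, compared with 8.57, 8.17 and 7.59 on wild type arrays 1, 2 and 3. The groups overlap, and the lowest value of the 6 is that of wild type array 3. This gave a log2 fold change of 0.22 ± 0.29 (SE, n = 3 arrays per group, limma adjusted p = 0.77), with a 95% interval of 0.736- to 1.85-fold. Without wild type array 3 the log2 fold change was -0.04, and against wild type array 1 alone it was -0.23.

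The other Rptor probe sets did not repeat one another. The dimmest of the 3, 1458472_at, had signals of 6.96, 7.83 and 6.86 on mutant arrays, compared with 7.15, 6.14 and 5.39 on wild type arrays. The 3 mutant values lie above wild type arrays 2 and 3, but wild type array 1 lies above mutant arrays 1 and 3. Its log2 fold change was 0.99 ± 0.46 (SE, limma adjusted p = 0.56 over all probe sets). The middle one, 1434619_at, had signals of 6.97, 6.97 and 6.77 on mutant arrays, compared with 7.16, 7.72 and 6.79 on wild type arrays, with a log2 fold change of -0.32 ± 0.25 (SE, limma adjusted p = 0.69). Over the 6 arrays these probe sets correlated with the brightest at r of 0.52 and 0.18, as a description of values that share their arrays.

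The deletion removes an exon downstream of the transcription start, so mutant and wild type alleles carry the same promoter sequence. The promoters of Rptor and Rictor, which define mTORC1 and mTORC2, are shown to compare the sequences from which these transcripts start. Each runs from 250 bases before to 50 after the RefSeq start (GRCm38.p6, plus strand), with GC boxes in capitals (GGGCGG or its reverse complement CCGCCC). The Rptor window is chr11:119602655-119602954 and the Rictor window is chr15:6708131-6708430.
Rptor: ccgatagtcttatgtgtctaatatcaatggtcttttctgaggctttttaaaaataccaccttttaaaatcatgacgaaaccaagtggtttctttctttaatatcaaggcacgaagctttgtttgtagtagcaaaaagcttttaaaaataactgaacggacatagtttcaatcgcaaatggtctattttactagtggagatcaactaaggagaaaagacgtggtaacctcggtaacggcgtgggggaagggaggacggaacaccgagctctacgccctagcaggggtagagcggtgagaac
Rictor: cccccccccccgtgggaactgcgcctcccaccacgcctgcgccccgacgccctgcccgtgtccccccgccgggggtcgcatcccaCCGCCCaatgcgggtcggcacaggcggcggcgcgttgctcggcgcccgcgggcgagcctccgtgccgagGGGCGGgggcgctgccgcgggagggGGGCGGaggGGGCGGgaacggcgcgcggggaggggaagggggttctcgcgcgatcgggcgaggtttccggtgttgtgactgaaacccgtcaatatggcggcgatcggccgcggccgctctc
The Rptor window holds 13 CG dinucleotides and 0 GC boxes, and the Rictor window 47 and 4. Of 12 windows listed for 8 of the subunit genes, 8 hold a GC box, against 35.7% of 32851 promoter windows of the same length. The windows are not independent: Mapkap1, Prr5 and Prr5l have more than 1, and those of Mapkap1 overlap and each hold a GC box. The E-box CACGTG, which is its own reverse complement, is in 0 of the 12, against 7.2% of all. A match in these letters is a description only.

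Mtor, the kinase of both complexes, was the only one of the 9 genes whose groups did not overlap on its brightest probe set. Its brightest probe set, 1417592_at, had signals of 10.5, 10.7 and 10.4 on mutant arrays, compared with 10.4, 9.93 and 10.4 on wild type arrays. Every mutant value lay above every wild type value, by a margin of 0.06 between mutant array 3 and wild type array 1, and 8.08% of all genes had mutant values that were all higher. The means were 10.55 ± 0.12 in mutant and 10.23 ± 0.26 in wild type arrays (SD, n = 3 each), a log2 fold change of 0.32 ± 0.18 (SE, limma adjusted p = 0.60). Its 95% interval runs from 0.927- to 1.67-fold. On this probe set wild type array 2 is the low one, and without it the log2 fold change was 0.17.

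The other 2 Mtor probe sets pointed in opposite directions. Probe set 1436267_a_at had signals of 8.89, 8.62 and 8.31 on mutant arrays, compared with 7.86, 8.34 and 8.53 on wild type arrays, with a log2 fold change of 0.36 ± 0.24 (SE). Probe set 1446185_at had signals of 6.03, 6.27 and 6.93 on mutant arrays, compared with 6.60, 8.42 and 6.47 on wild type arrays. Here wild type array 2 stands far above the other 5 arrays, where on the brightest probe set it is the lowest, and the log2 fold change was -0.75 ± 0.52 (SE). Averaged over the 3 probe sets, the log2 fold change of Mtor was -0.03.

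Mlst8, a WD-repeat protein that binds the kinase domain in both complexes, had signals of 6.92, 7.20 and 7.22 on mutant arrays, compared with 7.08, 7.57 and 7.57 on wild type arrays. Wild type array 1 lies among the mutant arrays, and wild type arrays 2 and 3, those with Y-linked signal, lie above them. Mlst8 had a log2 fold change of -0.29 ± 0.20 (SE, limma adjusted p = 0.64), with a 95% interval of 0.598- to 1.12-fold. Against wild type array 1 alone it was 0.04. The other Mlst8 probe set gave -0.24 ± 0.33 (SE), with a wild type range of 6.38 to 7.77 that spans all mutant values.

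Rictor, the scaffold that defines mTORC2, was covered by 5 probe sets. The brightest, 1435698_at, had signals of 9.70, 9.31 and 9.55 on mutant arrays, compared with 9.73, 9.61 and 8.71 on wild type arrays. Mutant values lie within the wild type range, and wild type array 3 is the low one. Here the log2 fold change was 0.17 ± 0.28 (SE, limma adjusted p = 0.82), and without wild type array 3 it was -0.15.

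Of the other Rictor probe sets, the groups do not overlap on 2, 1427583_at and 1453775_at. Probe set 1427583_at had signals of 9.33, 9.43 and 9.39 on mutant arrays, compared with 9.08, 9.18 and 8.40 on wild type arrays. On 1453775_at the signals were 8.46, 8.31 and 8.15 on mutant arrays, compared with 8.07, 8.03 and 7.18 on wild type arrays. On both, wild type array 3 is far below the others. Their log2 fold changes were 0.50 ± 0.23 and 0.55 ± 0.26 (SE, limma adjusted p of 0.56 and 0.57), and 8.38% of all probe sets had mutant values that were all higher. The remaining Rictor probe sets gave log2 fold changes of -0.07 and 0.18. On 1429810_at, the one with 0.18, the low array was wild type array 2, at 7.18, against 8.45 to 8.57 on mutant arrays.

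**Figure D2:**
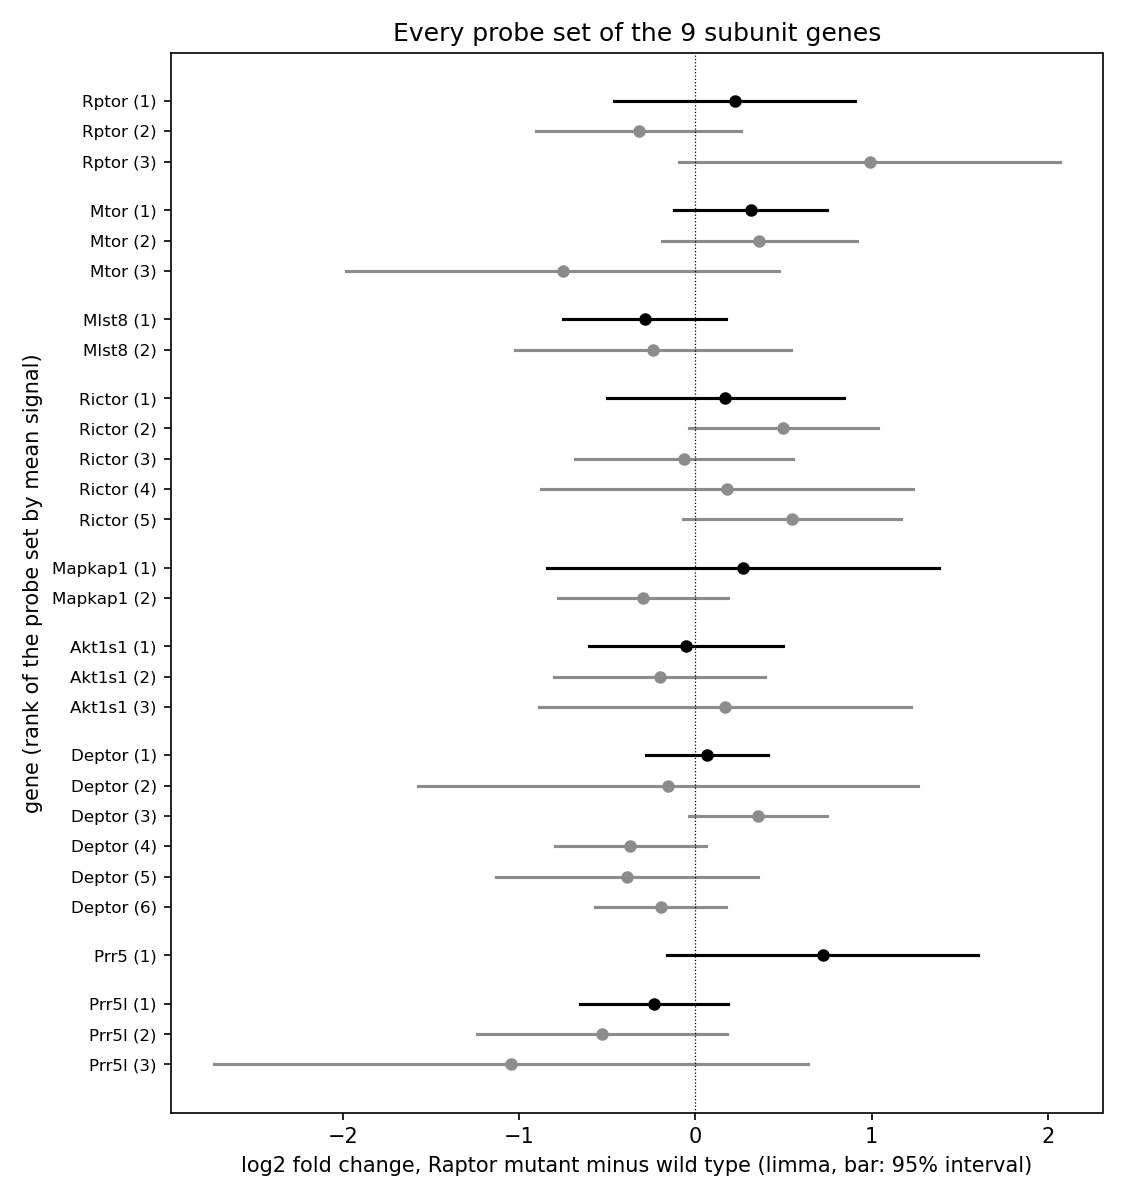
Log2 fold change (Raptor mutant minus wild type, horizontal axis) of all 28 probe sets of the 9 subunit genes, with 95% intervals of limma. Probe sets are ranked within each gene by mean signal, the brightest in black, and every interval includes 0.

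Mapkap1 encodes Sin1, the mTORC2 subunit that presents substrates and binds membrane lipids. Its brightest probe set, 1427212_at, had signals of 9.97, 9.98 and 10.03 on mutant arrays, compared with 10.06, 10.58 and 8.53 on wild type arrays. The mutant arrays spanned 0.07 and the wild type arrays 2.05, with wild type array 2 the highest and array 3 the lowest of the 6. The log2 fold change was 0.27 ± 0.46 (SE, limma adjusted p = 0.83), and its 95% interval, from 0.570- to 2.55-fold, was the widest of the 9 genes on the log2 scale. Leaving out wild type array 3 gave -0.33, and leaving out wild type array 2 gave 0.70. The other probe set gave -0.30 ± 0.21 (SE).

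Prr5 and Prr5l encode Protor-1 and Protor-2, accessory subunits that bind Rictor. Prr5 has 1 probe set, with signals of 6.87, 8.08 and 8.22 on mutant arrays, compared with 6.84, 7.41 and 6.74 on wild type arrays. Mutant arrays 2 and 3 lie above all wild type arrays, and mutant array 1 lies below wild type array 2. Prr5 had the largest log2 fold change of the 9 genes, 0.72 ± 0.37 (SE), with a limma adjusted p of 0.56 and a 95% interval of 0.910- to 2.99-fold. Leaving out mutant array 1 gave 1.15 (limma adjusted p = 0.33), and leaving out mutant array 3 gave 0.48 (limma adjusted p = 0.85).

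Prr5l had signals of 5.86, 6.06 and 6.36 on mutant arrays, compared with 6.24, 6.40 and 6.34 on wild type arrays, and the groups overlap through mutant array 3. Its log2 fold change was -0.23 ± 0.18 (SE, limma adjusted p = 0.66), with an interval of 0.640- to 1.13-fold. Leaving out mutant array 1 gave -0.12 and leaving out mutant array 3 gave -0.37, and the mean of the 3 probe sets gave -0.60. The other 2 probe sets of Prr5l also had negative log2 fold changes, -0.53 ± 0.30 and -1.05 ± 0.72 (SE). The larger one belongs to 1429909_at, with signals of 4.57, 4.76 and 5.21 on mutant arrays, compared with 5.599, 7.64 and 4.43 on wild type arrays. That value is carried by wild type array 2, and 4 of the 6 signals lie at or below 5.37, the highest lower quartile of any array.

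Akt1s1 encodes PRAS40, a substrate and inhibitor that binds Raptor. Its brightest probe set had signals of 7.48, 7.69 and 7.82 on mutant arrays, compared with 7.43, 8.19 and 7.54 on wild type arrays. The mutant values lie inside the wild type range, whose top is wild type array 2. Akt1s1 had a log2 fold change of -0.05 ± 0.23 (SE, limma adjusted p = 0.94), with a 95% interval of 0.664- to 1.40-fold. The other 2 probe sets gave -0.20 ± 0.26 and 0.17 ± 0.45 (SE).

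Deptor, the inhibitor found in both complexes, had the narrowest interval of the 9 genes. Its brightest probe set, 1453571_at, had signals of 10.72, 10.70 and 10.81 on mutant arrays, compared with 10.74, 10.72 and 10.56 on wild type arrays. All 6 signals lay within 0.24 of one another. The log2 fold change was 0.07 ± 0.15 (SE, limma adjusted p = 0.87), and the 95% interval runs from 0.827- to 1.33-fold.

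The dimmer Deptor probe sets spread more widely than the brightest. Probe set 1443579_s_at, of a type that can detect several transcripts, had signals of 9.85, 9.57 and 9.90 on mutant arrays, compared with 10.10, 11.21 and 8.48 on wild type arrays. Again wild type array 2 was the highest and wild type array 3 the lowest of the 6. On 1451348_at the groups did not overlap, with signals of 9.81, 9.91 and 9.94 on mutant arrays, compared with 9.76, 9.40 and 9.43 on wild type arrays. Its log2 fold change was 0.36 ± 0.17 (SE, limma adjusted p = 0.56). Mutant values were all higher on 4 of the 28 subunit probe sets, against 8.38% of all probe sets. Probe set 1419963_at gave -0.37 ± 0.18 (SE), 1428622_at gave -0.39 ± 0.32 and 1459719_at gave -0.20 ± 0.16. The 6 signals of 1459719_at, 3.93 to 4.33, all lay below the lower quartile of their arrays.

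The spread of the subunits was larger among wild type than among mutant arrays. The SD was larger in wild type arrays for 22 of the 28 probe sets (78.6%), a share close to the 74.8% of all probe sets. The median SD of the 28 was 0.17 in mutant and 0.46 in wild type arrays, beside 0.17 in mutant and 0.29 in wild type arrays over all probe sets. Wild type array 2 held the highest of the 6 values in 13 of the 28 probe sets (46.4%, against 25.5% of all probe sets). Wild type array 3 held the lowest in 11 (39.3%, against 19.9%). Probe sets of 1 gene share their target and were counted without a test.

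**Figure D3:**
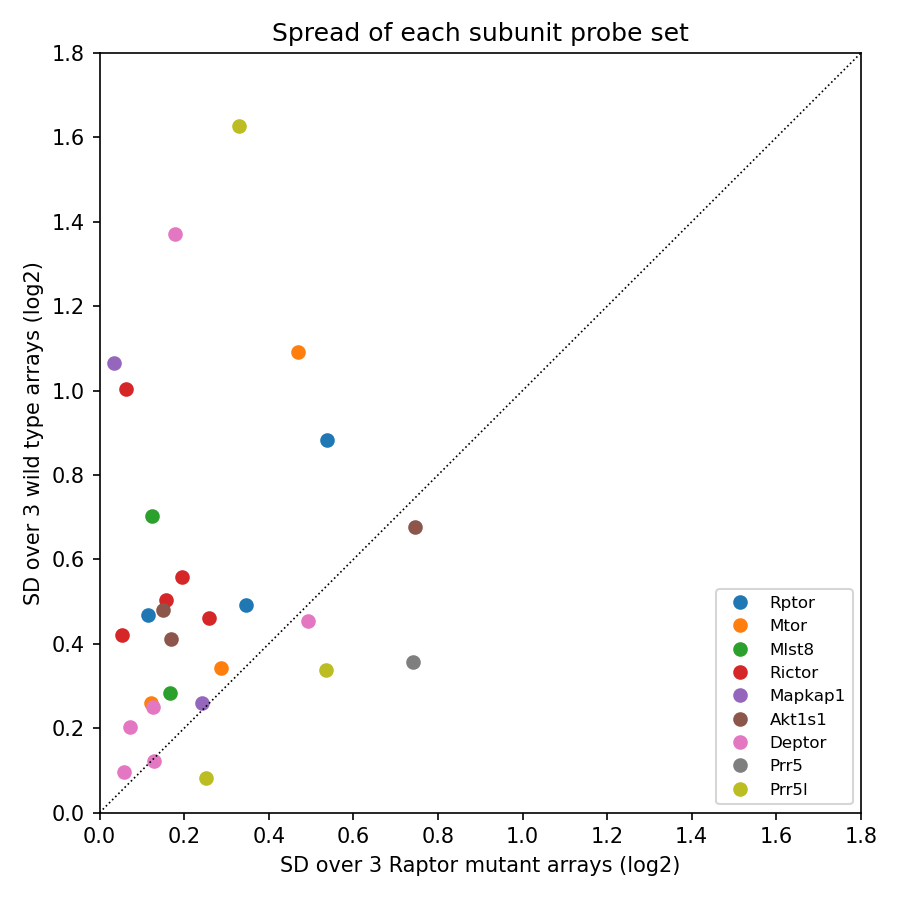
SD of log2 signal over the 3 Raptor mutant arrays (horizontal axis) and over the 3 wild type arrays (vertical axis) for each of the 28 subunit probe sets, coloured by gene. Points above the dotted line of equal spread number 22, and those with a wild type SD above 1 belong to Mapkap1, Rictor, Mtor, Deptor and Prr5l.

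Across the 6 arrays the brightest probe sets of Rptor and Rictor followed each other at r = 0.93, those of Rictor and Mapkap1 at 0.89 and those of Rictor and Deptor at 0.86. Rptor and Mtor had an r of 0.05, and Rptor and Mlst8 one of -0.80. These are descriptions over 6 points from the same arrays, with wild type array 3 the lowest for Rptor, Rictor, Mapkap1, Deptor and Prr5. Among 8768 other genes with a mean above the median of all genes, leaving out names of clones and predicted genes, those most like Rptor were Eef1a1, which encodes a translation elongation factor, Fam98a and Stard8, at r of 0.99, 0.99 and 0.98. The Eef1a1 signals ran only from 14.1 to 14.2. Those most like Mtor were Kdm5c, an X-linked histone demethylase gene, Polr2g, an RNA polymerase II subunit gene, and Myo19, a mitochondrial myosin gene, each at 0.99. The genes named were picked as the highest over only 6 arrays. Of the 8768 genes, 31 reached an r of at least 0.95 with Rptor and 59 with Mtor.

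Other genes of the pathway were read in 4 lists, of which 47 of 51 genes were measured and 0 were called (0.11% of all genes were). At an unadjusted p under 0.05 the 4 lists held 11 of 47, where 10% of all genes passed: 3 mTORC1 inputs, 2 assembly factors, 5 mTORC1 substrates and 1 mTORC2 substrate. With the dimmer 50% of genes left out, 1235 of 9096 genes passed at that threshold. The median log2 fold change of the 4 lists was 0.18, beside -0.07 over all genes and 0.06 over the brighter 50%. A positive log2 fold change was found in 31 of 47, against 40.4% of all genes. The median of the brighter 50% lies above 0, so most of those genes were positive.

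The inputs to mTORC1 are the GTPase Rheb, its inhibitor the TSC complex, and the Rag GTPases with their lysosomal anchor Ragulator. Of 13 measured, 0 were called, 8 were above 0 (40.4% of all genes were) and the median was 0.19. The median of the brighter 50% of genes was 0.06. Rragd, a Rag GTPase gene, had the smallest p, with signals of 7.59, 8.09 and 7.29 on mutant arrays, compared with 6.54, 6.90 and 6.60 on wild type arrays. Its log2 fold change was 0.98 ± 0.23 (SE, limma adjusted p = 0.22). Rhebl1, a relative of Rheb, had signals of 8.03, 8.54 and 8.38 on mutant arrays, compared with 7.61, 7.32 and 7.99 on wild type arrays, and a log2 fold change of 0.68 ± 0.23 (SE, limma adjusted p = 0.39). In both genes, picked for the smallest p of their list, all mutant values lay above all wild type values. The same held for 8.08% of all genes.

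Assembly of mTOR complexes needs the TTT and R2TP chaperones, which help fold and join the kinase, and the chaperonin CCT, which folds Raptor and mLST8. Of 16 measured, 0 were called, 14 were above 0 and the median was 0.19. Over all genes 40.4% were above 0, and the median of the brighter 50% of genes was 0.06. Tti2, a TTT subunit gene, had signals of 10.85, 10.74 and 10.89 on mutant arrays, compared with 10.23, 10.48 and 10.23 on wild type arrays, and a log2 fold change of 0.51 ± 0.16 (SE, limma adjusted p = 0.33). Rpap3, an R2TP subunit gene, had signals of 9.26, 8.81 and 9.44 on mutant arrays, compared with 8.72, 8.33 and 7.84 on wild type arrays, and a log2 fold change of 0.87 ± 0.27 (SE, limma adjusted p = 0.34). Neither gene's groups overlap, but both were picked for the smallest p of their list, and 8.08% of all genes had mutant values that were all higher. The 8 CCT subunit genes, Tcp1 and Cct2 to Cct8, had log2 fold changes between 0.06 and 0.28. They encode parts of 1 complex and make up 8 of the 16 genes.

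**Figure D4:**
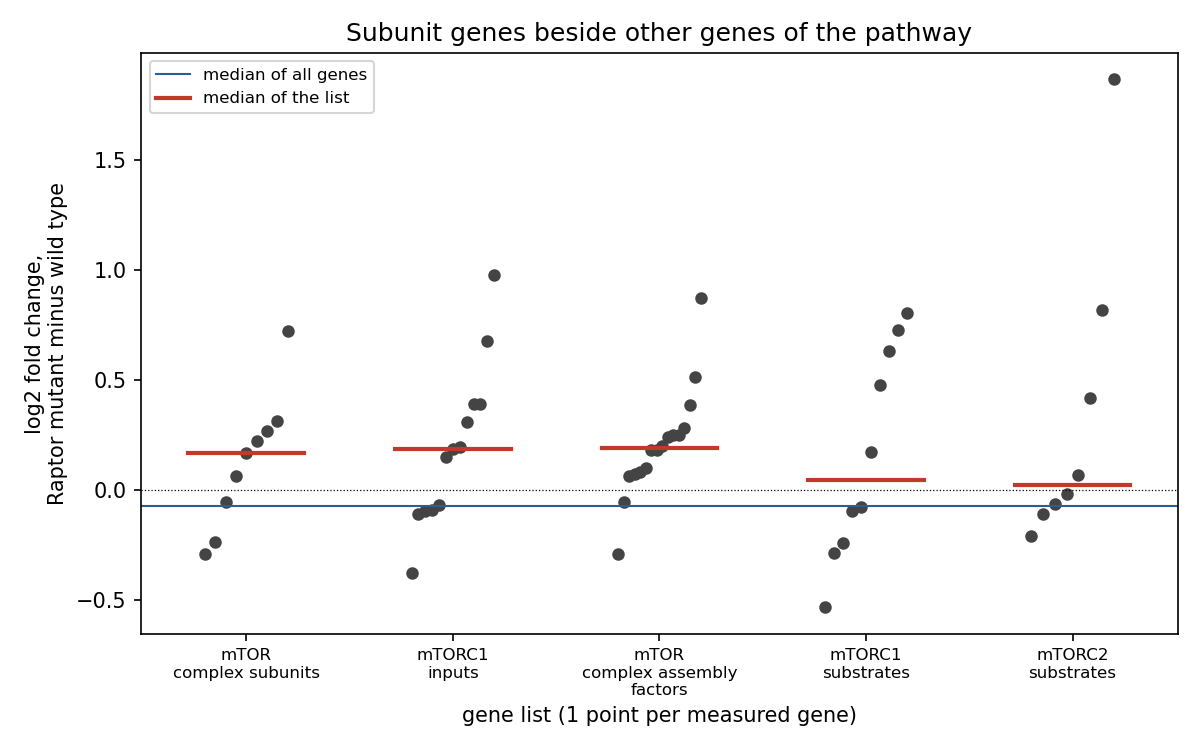
Log2 fold change (Raptor mutant minus wild type, vertical axis) of each measured gene of the mTOR complex subunits and of 4 other pathway lists, with the median of each list in red and that of all genes in blue. List medians run from 0.02 for mTORC2 substrates to 0.19 for mTORC1 inputs and assembly factors, and 0 genes shown passed the test.

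Among substrates of mTORC1, 10 were measured, 0 were called, 5 were above 0 (40.4% of all genes were) and the median was 0.05. Larp1, an RNA-binding repressor of ribosomal protein translation, had signals of 11.98, 12.06 and 12.05 on mutant arrays, compared with 11.48, 11.24 and 11.47 on wild type arrays, and a log2 fold change of 0.63 ± 0.15 (SE, limma adjusted p = 0.22). Rps6kb2, which encodes S6 kinase 2, had signals of 9.07, 9.18 and 9.29 on mutant arrays, compared with 8.68, 7.83 and 8.62 on wild type arrays, and a log2 fold change of 0.80 ± 0.25 (SE, limma adjusted p = 0.34). The groups do not overlap in either gene. These, too, were picked for the smallest p of their list, and 8.08% of all genes had mutant values that were all higher. Among substrates of mTORC2, 8 were measured, 0 were called, 4 were above 0 and the median was 0.02.

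Sgk1, a kinase gene of the mTORC2 list, had signals of 8.52, 7.84 and 8.998 on mutant arrays, compared with 7.76, 5.44 and 6.56 on wild type arrays. Mutant array 2 lay only 0.08 above wild type array 1, and the log2 fold change was 1.87 ± 0.56 (SE, limma adjusted p = 0.33). Prkca, which encodes protein kinase C alpha, had signals of 8.93, 8.98 and 9.29 on mutant arrays, compared with 8.64, 7.29 and 8.81 on wild type arrays. Its groups do not overlap, and wild type array 2 is far below the other arrays. The log2 fold change was 0.82 ± 0.38 (SE, limma adjusted p = 0.53). Sgk1 and Prkca were picked for the smallest p of their list, and 8.08% of all genes had mutant values that were all higher.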

How the data were processed

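Per the submitters' processing notes the authors used RMA, which corrects background, normalizes across arrays and summarizes probes into probe sets. For its version and settings, nothing is given in the sources used here. They deposited intensity values on a linear scale, 7.6 to 33795.5, and log2 was taken of them here. Of 45101 probe sets, 64 controls, 9160 naming no gene and 932 naming several were left out. The annotation table of the array names the genes, and Entrez identifiers of 34741 of 34945 probe sets matched the GRCm38.p6 gene table, with 0 symbols updated.

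The comparison was made in R 4.3.3 by limma 3.58.1 (lmFit, eBayes, 3 arrays per group, no covariate, two-sided), with Benjamini-Hochberg adjustment over all genes and a call at 0.05. Intervals are limma's, unadjusted for the number of genes. Precision is limited by the number of arrays, and p-values measure the spread between arrays, which may be technical. At most 99 probe sets had exactly equal deposited values, without rounding, on any 2 arrays. The procedure was tested on simulated data with the same SD in both groups. In these arrays the wild type SD was larger for 75.8% of genes, so the simulation did not check unequal spread. Array medians were 6.85 to 6.94. The members and lists were chosen with earlier results of these data known. The genes named are all members and the 2 genes of smallest p in each pathway list. Named as well are the 3 most correlated with Rptor and with Mtor, sex-linked genes for the arrays, and sort markers. Gzmb, Slamf1, Pf4 and the CCT subunit genes were named outside that rule, chosen after their values were seen. Alternatives tried were a block for the replicate number, centring on array medians, a second quantile normalization, averaging a gene's probe sets, leaving out the dimmer 50% of genes, trend and robust fitting, Y-linked signal (mean log2 of Kdm5d and Eif2s3y) as a covariate, leaving out the arrays with that signal, and leaving out each array. Same-numbered arrays of the groups deviated together at r of 0.18, -0.03 and 0.06, and differently numbered ones at -0.16 to 0.09. The labels give no shared animal or day, so the arrays were not treated as paired. These values cannot exclude a pairing.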

Additional observations from a re-analysis of the deposited data

How the results depend on the processing

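None of the 9 subunit genes was called under any of the alternatives run, and of 123 values of single subunits under alternatives 106 kept their direction, 17 turned and 0 passed the threshold. Mlst8, Prr5 and Prr5l fall in the dimmer 50% of genes and have no value with that filter. The count over all genes, 20, was 10 with the replicate block, 6 after a second quantile normalization, 40 with trend and robust fitting, and 0 with a covariate for Y-linked signal or without the arrays that carry it, where limma had 1149 and 1729 genes at an unadjusted p under 0.05. It was 5 to 31 with 1 array left out (31 without wild type array 1, 5 without wild type array 3, 10 and 9 without mutant arrays 1 and 3). With the replicate block 0 of the 9 subunits were called, as without it, and it was not run for the subunit probe sets or the pathway lists.

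With the covariate for Y-linked signal, the log2 fold changes that turned were -0.19 for Rptor, 0.026 for Mlst8, -0.14 for Rictor and 0.26 for Akt1s1. Without the arrays with that signal they were -0.23 for Rptor, 0.039 for Mlst8, -0.21 for Rictor, -0.066 for Mapkap1 and 0.24 for Akt1s1, with wild type array 1 as the only reference and its spread assumed equal to that of the mutants. With a gene's probe sets averaged they were -0.025 for Mtor, -0.014 for Mapkap1 and -0.11 for Deptor. With 1 array left out, the log2 fold change ranged from -0.037 to 0.45 for Rptor, -0.15 to 0.36 for Rictor, -0.33 to 0.70 for Mapkap1, -0.20 to 0.18 for Akt1s1, 0.48 to 1.15 for Prr5, -0.37 to -0.12 for Prr5l, 0.17 to 0.39 for Mtor, -0.45 to -0.19 for Mlst8 and 0.01 to 0.098 for Deptor, and the last 5 kept their direction. The cause of these turns was not tested.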
